A study of Homo sapiens with 3 samples.

Results

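The genes described here are the ZNF-named genes of human chromosome 19, taken as every gene of the deposited table whose symbol starts with ZNF and whose exons are all listed on that chromosome. There were 263 of them among 26485 genes, and 4 more ZNF genes that are also listed on alternate chromosome 19 sequences were left out. Expression was measured in HEC1B, an established human endometrial cancer cell line, by sequencing of total RNA at 48 h. The control group is 1 library of HEC1B cells labelled siNC and wild type. The PRMT6 knockdown group is 2 libraries of the same line, siPRMT6-1 and siPRMT6-2, each with its own siRNA against PRMT6, an arginine methyltransferase that modifies histones. No siRNA has a replicate, and the labels do not state whether cultures were separate. The spread behind a p-value comes from the 2 knockdown libraries, which differ in siRNA, and from the other genes tested. The lone control adds none. Whether that spread is technical or lies between the siRNAs cannot be told apart. Counts were compared as CPM, counts scaled by the library size after TMM scaling, and levels of genes or gene groups as CPM per kilobase (kb) of exon.

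Most ZNF genes encode C2H2 zinc finger proteins, in which tandem fingers, each folded around a zinc ion, read DNA. Adjoining fingers are joined by a short conserved linker. On chromosome 19 they lie in tandem arrays that arose by duplication, and many carry a KRAB box, a domain that recruits the corepressor TRIM28 and through it histone methyltransferases such as SETDB1 to silence transposable elements and genes. Members without a KRAB box include SCAN-domain and finger-only proteins with other or unknown roles.

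The fingers, KRAB boxes and promoters of a few members are printed first, because the grouping used for the levels rests on them. Finger stretches are shown for ZNF497, ZNF814, ZNF132 and ZNF324. ZNF497 had the most counts, ZNF814 had the most among members with a KRAB box, ZNF132 went in opposite directions with the siRNAs, and ZNF324 had the lowest p of the knockdown test. Each is a coding stretch of 78 bases holding a finger and the linker after it, 5′ to 3′, from GENCODE release 29, with the linker in capitals.
ZNF497 finger: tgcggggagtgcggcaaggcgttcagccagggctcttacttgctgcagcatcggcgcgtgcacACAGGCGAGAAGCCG
ZNF814 finger: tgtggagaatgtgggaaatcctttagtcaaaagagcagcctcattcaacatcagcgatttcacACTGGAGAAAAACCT
ZNF132 finger: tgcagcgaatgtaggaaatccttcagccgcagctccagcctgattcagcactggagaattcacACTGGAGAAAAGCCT
ZNF324 finger: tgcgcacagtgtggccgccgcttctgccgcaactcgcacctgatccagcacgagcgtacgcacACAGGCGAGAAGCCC
The translated coding sequences of 242 members held a median of 12 such fingers, and the highest number was 39. The core of the KRAB box was searched for in the same translations by a pattern of its conserved positions, and 205 members matched. Its coding stretch is shown for ZNF814, ZNF132 and, as a diverged form, ZNF224. Capitals mark the second codon, one of several conserved positions that the pattern allowed to vary.
ZNF814 KRAB core: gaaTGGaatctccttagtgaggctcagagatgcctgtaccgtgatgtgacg
ZNF132 KRAB core: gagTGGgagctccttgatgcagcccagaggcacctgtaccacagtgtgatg
ZNF224 KRAB core: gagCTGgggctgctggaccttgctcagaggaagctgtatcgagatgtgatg
The other 37 members gave no match, but the pattern misses some boxes. ZNF473 and ZNF180, which carry diverged KRAB boxes, and ZNF714, which carries part of the domain, are among the 37.

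Promoters were taken from RefSeq (GRCh38.p14) as 250 bases before to 50 bases after the start, and 221 members had an entry. They are shown for the same 4 genes, on the strand of the gene, with each match to CGGAAG, the core of sites bound by ETS-family transcription factors, on either strand in capitals. The promoter of ZNF497 lies at chr19:58362702-58363001 on the minus strand and held no match. Those of ZNF814 (chr19:57888988-57889287, minus strand) and ZNF132 (chr19:58440104-58440403, minus strand) each held a match, and that of ZNF324 (chr19:58466830-58467129, plus strand) held matches on both strands.
ZNF497 promoter: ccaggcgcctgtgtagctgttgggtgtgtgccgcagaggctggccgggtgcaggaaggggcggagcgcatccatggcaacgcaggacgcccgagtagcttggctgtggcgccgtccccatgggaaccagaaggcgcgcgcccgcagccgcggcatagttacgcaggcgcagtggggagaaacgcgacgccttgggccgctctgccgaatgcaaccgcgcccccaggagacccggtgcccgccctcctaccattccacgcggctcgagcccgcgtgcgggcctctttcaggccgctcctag
ZNF814 promoter: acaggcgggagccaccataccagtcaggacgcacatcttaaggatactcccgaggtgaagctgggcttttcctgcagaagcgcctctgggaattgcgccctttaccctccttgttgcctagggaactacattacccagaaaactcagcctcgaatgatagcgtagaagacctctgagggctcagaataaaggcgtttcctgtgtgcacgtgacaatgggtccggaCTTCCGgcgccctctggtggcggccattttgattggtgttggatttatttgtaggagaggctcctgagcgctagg
ZNF132 promoter: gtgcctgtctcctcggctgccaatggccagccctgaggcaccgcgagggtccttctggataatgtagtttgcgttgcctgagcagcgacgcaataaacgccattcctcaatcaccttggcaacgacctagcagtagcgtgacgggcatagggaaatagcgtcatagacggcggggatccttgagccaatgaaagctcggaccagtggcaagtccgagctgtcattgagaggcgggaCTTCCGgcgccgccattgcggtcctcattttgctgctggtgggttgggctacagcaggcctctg
ZNF324 promoter: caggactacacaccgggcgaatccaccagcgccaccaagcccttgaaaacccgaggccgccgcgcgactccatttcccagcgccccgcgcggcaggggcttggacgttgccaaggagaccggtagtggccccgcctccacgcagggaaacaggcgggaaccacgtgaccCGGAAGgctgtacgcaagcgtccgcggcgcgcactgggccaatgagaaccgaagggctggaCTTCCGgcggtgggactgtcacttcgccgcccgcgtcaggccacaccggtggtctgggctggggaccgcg
The ETS core was present in 57.0% of the 221 member promoters, against 19.5% of the 35116 promoters of the table and 37.6% of the 340 promoters of ZNF genes on other chromosomes. Member promoters are rich in CpG, with a median of 21 CpG against 14 in the table. Among promoters with at least 20 CpG the shares were 56.8% of 125 member promoters and 32.5% of 14454 in the table. The motif did not separate members with counts from those without, since 54.5% of 110 members with at least 1 count and 59.5% of 111 members at 0 held it.

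5 other motifs were searched on both strands. CCAAT was in 52.5% of member promoters and 34.6% of all, GGGCGG (the GC box) in 66.1% and 45.0%, GCCATNTT (the YY1 site) in 14.9% and 6.58%, and the NRF1 site in 13.1% and 5.78%. TATAAA was rarer, in 2.26% of member promoters and 11.5% of all. In ZNF genes on other chromosomes the NRF1 site was as frequent as in members (13.2%). There the GC box was in 56.2%, CCAAT in 37.4%, the YY1 site in 7.06% and TATAAA in 5.59%. Among promoters with at least 20 CpG the GC box was rarer in members, at 69.6% against 82.1% in the table. In these CpG-rich promoters CCAAT was in 40.0% and 30.3%, the YY1 site in 12.8% and 8.54%, and the NRF1 site in 20.8% and 12.7%. The last 3 letters of the GC box are the first 3 of the ETS core, so these matches can overlap. The shares are descriptions of letters in these windows and not evidence of binding.

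In these libraries the genes of the family were near the limit of detection. The table held 410916 counts in siNC, against 381628 with siPRMT6-1 and 362080 with siPRMT6-2, and a floor of 3 counts equals 7.78, 8.09 and 9.09 CPM. PRMT6 itself had 25 counts in siNC, against 4 with siPRMT6-1 and 7 with siPRMT6-2, lower with both siRNAs. Its ratio to siNC was 0.167 with siPRMT6-1 (95% interval 0.0421 to 0.482) and 0.327 with siPRMT6-2 (0.120 to 0.778), and its adjusted p in edgeR's quasi-likelihood test with Benjamini-Hochberg adjustment was 1.00. Intervals here are exact binomial for ratios and exact Poisson for counts, and they cover counting error only. The 7 epithelial markers summed to 1470, 772 and 879 counts (the order siNC, siPRMT6-1, siPRMT6-2 holds from here on), of which KRT8 gave 1329, 681 and 770, while EPCAM had 5, 5 and 4 and the defining markers CDH1 and KRT19 were at 0. The 5 endometrial markers had 224, 179 and 287 counts, nearly all from PAX8 (158, 117 and 227) and HOXA10 (65, 61 and 58), with HOXA11 at 1 in each library, ESR1 at 0, 0 and 1, and PGR at 0. The 6 leukocyte markers had 17, 19 and 57 counts, a ratio of 3.92 with siPRMT6-2 (2.25 to 7.19). CD68, a lysosomal protein of macrophages that other cells also express, gave 17, 19 and 56 of these, PTPRC, CD3E and CD14 were at 0, and LYZ had 1 count, in siPRMT6-2. The sum was 531, 360 and 372 for 6 fibroblast markers, but 4 of them were at 0 throughout and only 1 reached 20 counts. For 5 endothelial markers it was 19, 18 and 6, with 3 of them at 0 throughout. Their part in the members' counts was not tested.

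Strand limits every level below and the marker counts above. Reads were counted with strand setting 1, and the antisense-named genes of the whole table bear on it. Of 157 such genes, each overlapping its named partner by 100 or more exon bases with 100 or more counts in the pair, 129 outnumbered that partner in siNC. VIM-AS1, for instance, had 12493 counts in siNC where VIM, the gene of the intermediate filament protein vimentin, had 312. Whether the counts of a ZNF gene or a marker come from its own transcript or from the opposite strand was not tested. Among the markers, KRT8 overlaps KRT18 and PAX8 overlaps PAX8-AS1 on the opposite strand, so the marker counts, also those at 0, are limited in the same way. In the deposited gene models the exons of 19 members overlap those of an opposite-strand gene. In GENCODE 57 members lie opposite an annotated gene, among them 8 of the 21 members that reached 10 counts in a library.

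Of the 263 members, 132 (50.2%) had no count in any of the 3 libraries, against 71 of 300 ZNF genes on other chromosomes and 483 of 1381 other genes of chromosome 19. Another 81 members never exceeded 3 counts in a library, 29 peaked at 4 to 9, and 21 reached 10. In siNC 86 members had a count, in siPRMT6-1 102 and in siPRMT6-2 101, and 58 had a count in all 3 libraries. A member at 0 in a library is below the floor of 3 counts there, not shown to be silent.

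Summed over members there were 477 counts in siNC, against 511 with siPRMT6-1 and 414 with siPRMT6-2. Per exon length this is 1.29, 1.44 and 1.31 CPM per kb. The level was below that of ZNF genes on other chromosomes (3.22, 2.89 and 3.57 CPM per kb) and of the other genes of chromosome 19 (20.1, 18.5 and 19.6 CPM per kb) in each library. The ratio to siNC was 1.11 with siPRMT6-1 (0.982 to 1.27) and 1.01 with siPRMT6-2 (0.887 to 1.16), and between the siRNAs it was 0.910 (0.797 to 1.04). All 3 intervals include 1, the first by a small margin. Without the antisense-named, readthrough and pseudogene-named members the siPRMT6-1 ratio was 1.14 (1.001 to 1.30). For 243 members, under 20% of the 50-base stretches of their transcripts occur in another ZNF-named gene. Over these the ratio was 1.15 (1.01 to 1.32), so both intervals then lay above 1. With siPRMT6-2 these ratios were 1.03 (0.900 to 1.18) and 1.07 (0.932 to 1.23). An exact permutation of 1 against 2 libraries cannot give a p below 0.333. The 5 members with the most counts summed to 115, 147 and 90 counts. Without them the sum was 362, 364 and 324, and both ratios to siNC were 1.05. ZNF genes on other chromosomes, measured the same way, had ratios of 0.897 (0.833 to 0.965) and 1.11 (1.03 to 1.19).

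**Figure D1:**
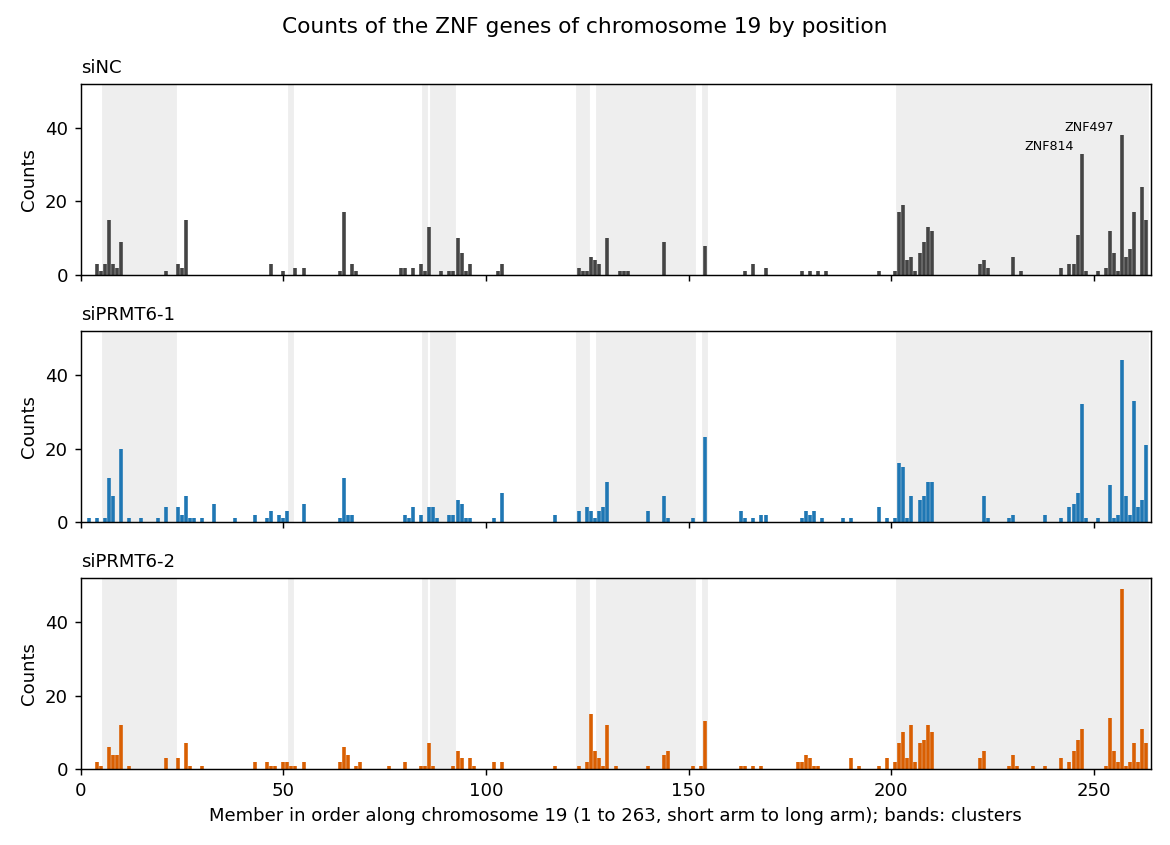
Counts of the 263 members in order along chromosome 19, from the short to the long arm, in siNC, siPRMT6-1 and siPRMT6-2; each line is a gene, the y axis is raw counts, and alternating bands are clusters. Most members stand at or near 0 in each library, and the tallest lines, those of ZNF497 and ZNF814 among them, stand in the last cluster.

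Counts were concentrated near the end of the long arm. Members were grouped into 16 clusters, runs whose neighbouring starts lie at most 1 Mb apart. The last cluster runs from ZNF628 to ZNF446 (chromosome 19, 55.48 to 58.49 Mb, hg38) and holds 62 members with 23.3% of the members' exon length. Of the 477 siNC counts 282 lay in it (59.1%), with 269 in siPRMT6-1 and 217 in siPRMT6-2. It also held 12 of the 21 members that reached 10 counts. Its level was 3.27 CPM per kb in siNC, while the 47 other genes there had 4.74. The ratio to siNC was 0.993 with siPRMT6-1 (0.837 to 1.18) and 0.900 with siPRMT6-2 (0.750 to 1.08). Even here 26 of the 62 members were at 0 in the 3 libraries.

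The neighbouring cluster, from ZNF175 to ZNF331 (51.57 to 53.58 Mb), was the opposite in level. Its 47 members had 12 counts in siNC, against 27 with siPRMT6-1 and 27 with siPRMT6-2, with 28 members at 0 and no count above 4 in any gene and library. In siNC this was 0.186 CPM per kb, where the 22 other genes of the interval had 5.85. The ratio to siNC was 2.34 with siPRMT6-1 (1.15 to 5.07) and 2.63 with siPRMT6-2 (1.29 to 5.70). Both ratios share the 12 control counts, and no interval was corrected for the 16 clusters examined. When clusters were broken at gaps of 2 Mb instead, this run joined ZNF541, ZNF114, ZNF473 and the last cluster, and the ratios were 1.10 and 0.999. The last cluster brought 282 control counts to that sum, so those ratios cannot check the ratio of ZNF175 to ZNF331 by itself. ZNF83 is the member with the most counts in the cluster, with 0, 3 and 4. The other genes of the interval had ratios of 1.05 (0.766 to 1.45) and 0.952 (0.678 to 1.34).

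Among the larger arrays nearer the short-arm end, the cluster from ZNF557 to ZNF846 (7.07 to 9.77 Mb, 18 members) had 33, 47 and 30 counts, and that from ZNF653 to ZNF791 (11.48 to 12.63 Mb, 28 members) had 24, 34 and 22. Further along, ZNF101 to ZNF254 (19.67 to 24.13 Mb, 32 members) had 35, 31 and 22 counts, of which ZNF714 gave 17, 12 and 6. On the long arm, ZNF565 to ZNF573 (36.18 to 37.78 Mb, 30 members) had 24, 24 and 17, with 21 members at 0. The array from ZNF575 to ZNF296 (43.53 to 45.08 Mb, 24 members) had 25, 30 and 28. For each of these 5 arrays, with all members summed, the interval of the ratio to siNC included 1 with both siRNAs. For ZNF653 to ZNF791 this depended on ZNF833P and the other specially named members: without them the siPRMT6-1 ratio was 3.12 (1.43 to 7.55) in place of 1.47 (0.849 to 2.60). The siPRMT6-2 ratio of ZNF557 to ZNF846 went from 1.06 to 1.87 (0.942 to 3.83) when clusters were broken at 0.5 Mb. That of ZNF565 to ZNF573 went from 0.828 to 1.95 (0.379 to 12.5) without members that overlap an opposite-strand gene. The cluster of ZNF574 and ZNF526 (42.08 to 42.23 Mb, 2 members) had 9, 4 and 20 counts, led by ZNF574. Its ratio to siNC was 0.463 with siPRMT6-1 (0.104 to 1.66) and 2.60 with siPRMT6-2 (1.13 to 6.48). Several other small clusters had almost nothing. ZNF57 led the first with 3, 1 and 2 counts, ZNF302 led its cluster with 0, 4 and 1, and ZNF780A had 1, 4 and 2. ZNF333, ZNF114 and ZNF536 had at most 1 count in a library.

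**Figure D2:**
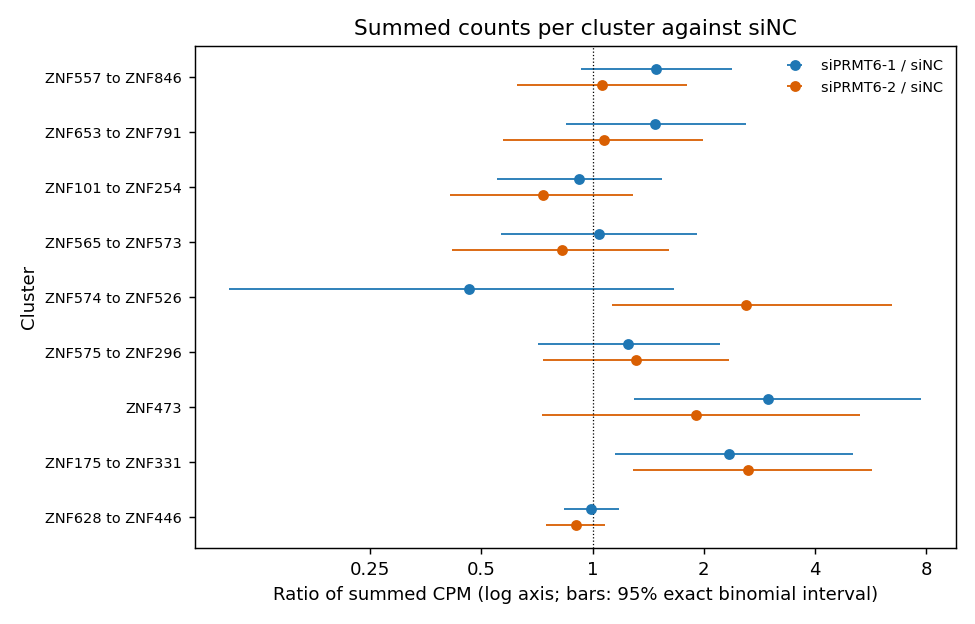
Ratio of summed CPM to siNC for 9 of the 16 clusters (y axis, in order along the chromosome), with siPRMT6-1 and siPRMT6-2 as separate points on a log axis; bars are 95% exact binomial intervals that cover counting error only. The last cluster, ZNF628 to ZNF446, has the narrowest bars and sits near 1, and ZNF175 to ZNF331 lies above 1 with both siRNAs on 12 control counts.

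Levels also differed by protein class, a split chosen after the counts were seen. The 37 members without a match to the KRAB core had 222, 219 and 209 counts, 46.5% of the siNC counts, or 4.85, 4.97 and 5.33 CPM per kb. The 205 members with the core had 236, 281 and 195 counts, or 0.764, 0.947 and 0.738 CPM per kb. Only 9 of the 37 were at 0 in all 3 libraries (24.3%), against 108 of the 205 (52.7%). Without ZNF497 the members lacking the core still had 4.14 CPM per kb in siNC, and without ZNF180, ZNF473 and ZNF714 they had 5.08. Among members with no opposite-strand gene in GENCODE the siNC levels were 3.67 CPM per kb without the core (27 genes) and 0.702 with it (166 genes). The split ran through the last cluster as well, where the 14 members without the core had 9.70 CPM per kb in siNC and the 45 with it had 2.17.

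With knockdown, members lacking the core had a ratio to siNC of 1.03 with siPRMT6-1 (0.848 to 1.24) and 1.10 with siPRMT6-2 (0.907 to 1.34). Over all 205 members with the core the ratios were 1.24 (1.04 to 1.48) and 0.966 (0.795 to 1.17). They are given inside and outside the last cluster as well. Inside it they had 151, 144 and 95 counts, with ratios of 0.992 (0.784 to 1.25) and 0.735 (0.563 to 0.957). Outside it, 160 genes had 85, 137 and 100 counts, with ratios of 1.68 (1.27 to 2.23) and 1.38 (1.02 to 1.86). Without ZNF317, which gave 9, 20 and 12 of these counts, the ratios outside were 1.60 (1.19 to 2.17) and 1.35 (0.984 to 1.86), so the interval with siPRMT6-2 then included 1. These sets were formed with the counts known, each siRNA is a single library, and the difference between the sets was not tested. Most members of ZNF175 to ZNF331, a cluster with 12, 27 and 27 counts, belong to the KRAB set outside the last cluster. The ratios of that cluster and of that set therefore share counts and are not separate results.

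**Figure D3:**
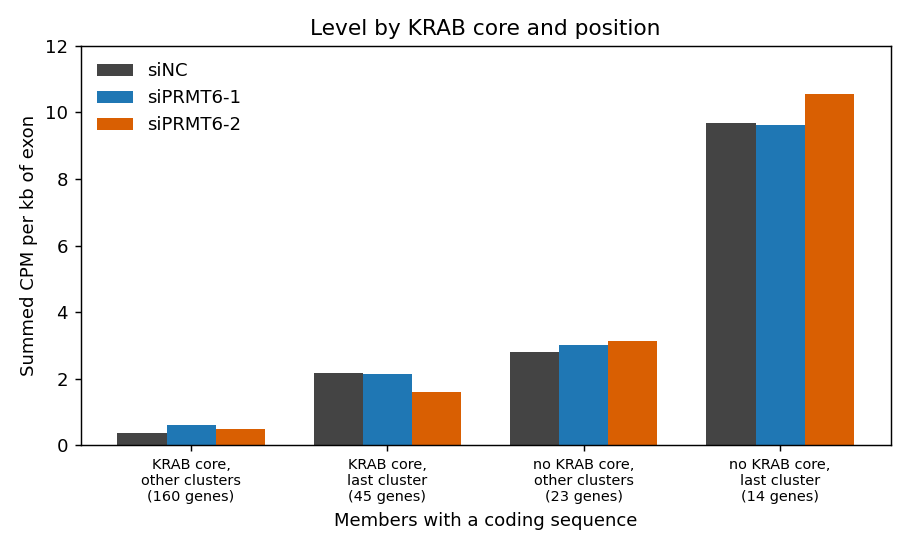
Summed CPM per kb of exon (y axis, from 0) for members with and without a match to the KRAB core, inside and outside the last cluster, in siNC, siPRMT6-1 and siPRMT6-2; a bar is a single library, so there is no error bar. Members without the core stand at 9.70, 9.63 and 10.6 in the last cluster, and members with it at 0.355, 0.596 and 0.489 elsewhere.

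Among the finger proteins without a KRAB core, ZNF497 had the most counts of all members, 131 in sum, and also the most per exon length. It lies on the minus strand at chr19:58354357-58362848 and had 38 counts in siNC, against 44 with siPRMT6-1 and 49 with siPRMT6-2, or 27.6, 33.3 and 41.7 CPM per kb. The counting intervals of the 3 libraries overlap. Its ratio to siNC was 1.20 (0.763 to 1.91) and 1.51 (0.967 to 2.37). Its exons overlap A1BG-AS1 on the opposite strand, which had 4, 0 and 1 counts.

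ZNF428 (chr19:43607224-43619862, minus strand), with 10, 11 and 12 counts, also overlaps an opposite-strand gene, SRRM5, which had 170, 128 and 131. ZNF579, at 19, 15 and 10 counts, was higher in siNC than in either knockdown library. ZNF358 had 15, 12 and 6 and ZNF628, chosen after its values were seen, 17, 16 and 7. The counting intervals of siNC and both knockdown libraries overlap for each of the 3. ZNF787 (13, 11 and 12 counts) and ZNF581 (9, 7 and 8 counts) were level across the libraries. ZNF444, a SCAN-domain protein named after its values were seen, was level too at 12, 11 and 10.

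ZNF574 (chr19:42076138-42081567, plus strand) had 5 counts in siNC, against 3 with siPRMT6-1 and 15 with siPRMT6-2. The siPRMT6-2 library stood above both others. Its ratio to siNC was 3.51 with siPRMT6-2 (1.21 to 12.3), and siPRMT6-2 to siPRMT6-1 was 5.62 (1.59 to 30.3). ZNF507 (chr19:32345608-32387667, plus strand) had 13, 4 and 7 counts, with the knockdown libraries below siNC and a ratio of 0.320 with siPRMT6-1 (0.0761 to 1.04). ZNF714, with 17, 12 and 6 counts, was also lower in both.

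ZNF473, which acts in the processing of histone pre-mRNA, had 8 counts in siNC, against 23 with siPRMT6-1 and 13 with siPRMT6-2. It lies at chr19:50025806-50048774 on the plus strand, alone in its cluster and opposite VRK3 in GENCODE. Both knockdown libraries were above siNC. The ratio was 2.99 with siPRMT6-1 (1.29 to 7.74) and 1.90 with siPRMT6-2 (0.730 to 5.29), and edgeR's fold change over both was 1.28 on the log2 scale (SE 0.70).

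**Figure D4:**
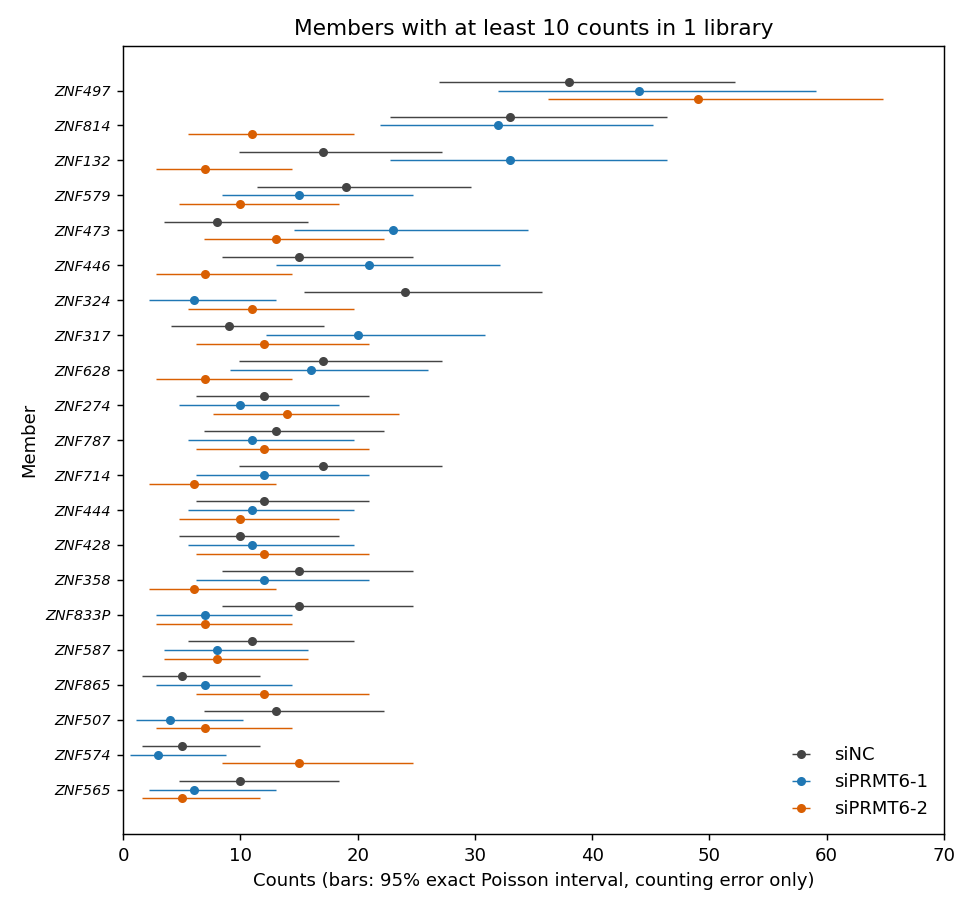
Counts (x axis) of the 21 members that reached 10 counts in a library, ordered by their sum, in siNC, siPRMT6-1 and siPRMT6-2; bars are 95% exact Poisson intervals that cover counting error only. ZNF497 stands highest, and the bars of the 3 libraries overlap for most genes. The siPRMT6-2 bar lies below both others for ZNF814 (33, 32 and 11 counts) and below that of siPRMT6-1 for ZNF132 (17, 33 and 7 counts), and the siPRMT6-1 bar lies below siNC for ZNF324 (24, 6 and 11 counts).

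Among KRAB members, ZNF814 (chr19:57869379-57889074, minus strand) had 33 counts in siNC, against 32 with siPRMT6-1 and 11 with siPRMT6-2. Only siPRMT6-2 was low, with a ratio to siNC of 0.390 (0.178 to 0.790) and to siPRMT6-1 of 0.386 (0.176 to 0.786). ZNF132 (chr19:58432814-58440222, minus strand) had 17, 33 and 7 counts. It was high in siPRMT6-1, at a ratio of 2.02 (1.09 to 3.87), and low in siPRMT6-2, at 0.481 (0.169 to 1.22), so that siPRMT6-2 to siPRMT6-1 was 0.238 (0.0890 to 0.548). The siRNAs differed in direction for this gene.

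ZNF446 (chr19:58476164-58489533, plus strand), which has a SCAN domain beside its KRAB box, had 15, 21 and 7 counts. Its siPRMT6-2 to siPRMT6-1 ratio was 0.374 (0.134 to 0.914). ZNF324, its neighbour (chr19:58467045-58473578, plus strand), had 24 counts in siNC, against 6 with siPRMT6-1 and 11 with siPRMT6-2. Both knockdown libraries were below siNC, with ratios of 0.260 (0.0870 to 0.653) and 0.536 (0.237 to 1.14). The annotated transcripts of these neighbours share sequence. Of the 50-base stretches of ZNF324 transcripts, 33.5% occur in transcripts of another ZNF-named gene, most often ZNF446. For ZNF446 the share is 26.1%, most often with ZNF324. What this did to their counts was not tested. Of the 263 members, 16 had at least 20% of such stretches shared, and they had 44, 32 and 19 counts.

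ZNF317 (chr19:9140380-9163415, plus strand), the highest KRAB member of the short arm, had 9, 20 and 12 counts and a ratio of 2.31 with siPRMT6-1 (1.01 to 5.77). ZNF565 (chr19:36182060-36215084, minus strand), which overlaps ZNF146 on the opposite strand, had 10, 6 and 5. Named after their values were seen, ZNF274, which is known to bring SETDB1 to the 3′ ends of other ZNF genes, had 12, 10 and 14 counts, and ZNF587, which lies opposite ZNF814 in GENCODE, had 11, 8 and 8. ZNF91, known as a repressor of SVA retrotransposons, had 2 counts in each library.

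Members that are not plain coding genes added little. The 11 antisense-named members had 1, 2 and 1 counts in sum, from ZNF790-AS1 (1, 0 and 0) and ZNF571-AS1 (0, 2 and 1), and their partners ZNF790 and ZNF571 had 3, 8 and 2 and no count. None of the 11 reached 10 counts. The 3 readthrough members were at 0. The 8 pseudogene-named members had 18, 8 and 9 counts, and ZNF833P (chr19:11673998-11686569, plus strand) gave 15, 7 and 7 of them. Members with an opposite-strand overlap in the deposited models had 71, 81 and 75 counts, or 2.89, 3.43 and 3.57 CPM per kb.

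No member passed the test of both PRMT6 knockdown libraries against siNC. edgeR's quasi-likelihood test tested 6803 genes and called none (0% with a Benjamini-Hochberg adjusted p under 0.05), so also none of the 20 members that passed the filter on low counts. At an unadjusted p under 0.05 it gave 186 genes and 0 members. DESeq2 called 0 genes and had 13 genes and 0 members at an unadjusted p under 0.05. The lowest p among members was 0.056, for ZNF324, whose fold change fell by 1.33 on the log2 scale (SE 0.64) with an adjusted p of 1.00. In simulated counts for these 6803 genes the test recovered 32.2% of genes raised 4-fold and every gene raised 16-fold. The mean was 5.6 false calls over 5 simulated sets. Only increases of equal size in both knockdown libraries were simulated, on genes drawn from all those tested. The shares therefore do not describe decreases, genes on which the siRNAs differ, or the members in particular.

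For each siRNA, the tested genes whose ratio had an interval without 1 were counted. With siPRMT6-1, 3 of the 20 members were higher (ZNF317, ZNF473 and ZNF132) against 5.89% of all genes tested, and 1 was lower (ZNF324) against 7.14%. With siPRMT6-2, 1 was higher (ZNF574) against 9.73% and 1 lower (ZNF814) against 8.82%. Between siPRMT6-2 and siPRMT6-1, 1 was higher (ZNF574) against 11.3% and 3 were lower (ZNF814, ZNF132 and ZNF446) against 9.61%. With 20 genes these counts are not read as a result about the family. None of the 20 had an interval without 1 in the same direction with both siRNAs.

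The median log2 difference of the 20 tested members was -0.11 with siPRMT6-1 and -0.37 with siPRMT6-2, against 0.01 and 0.01 over all genes tested. In each case 8 of the 20 were higher (40.0%) and 12 lower, where 50.4% and 50.9% of all genes tested were higher. The depth-scaled ratios of the summed counts, 1.11 and 1.01, lay above 1 where these medians lay below 0, but their intervals include 1. Among 59 tested ZNF genes of other chromosomes the medians were -0.11 and 0.12. A gene with enough counts in only 1 library also passed the filter. ZNF507 and ZNF833P passed through siNC in this way, and ZNF574 through siPRMT6-2. The direction of such genes is partly set by the filter, so these medians and shares are descriptions only.

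The corepressor system that KRAB proteins work through was measured better than the family itself. The list holds 28 genes and was named with earlier results known. It had 788 counts in siNC, against 743 with siPRMT6-1 and 603 with siPRMT6-2, with ratios of 0.981 (0.887 to 1.09) and 0.895 (0.803 to 0.996). Its 19 tested genes had median log2 differences of -0.02 and -0.08, and none was called. TRIM28, the scaffold that binds the KRAB box, had 144, 126 and 101 counts. SETDB1, the H3K9 methyltransferase it recruits, had 36, 34 and 29. CBX5, which encodes heterochromatin protein HP1 alpha, had 31, 66 and 17 counts, high in siPRMT6-1 and low in siPRMT6-2. EHMT2, another H3K9 methyltransferase, had 34, 11 and 20, and the deacetylase HDAC1 79, 53 and 45. The remodeller CHD4 (54, 49 and 49) and the DNA methyltransferase DNMT1 (70, 75 and 73) were level. ZFP57, a KRAB protein of imprinted regions, was at 0 in the 3 libraries.

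The libraries differed far more in another list. Interferon-stimulated genes, 40 in number, had 372 counts in siNC, against 465 with siPRMT6-1 and 3489 with siPRMT6-2, an 11.0-fold ratio with siPRMT6-2. The 1.01 ratio of the ZNF members in the same library stands beside that value, and its part in the members' siPRMT6-2 counts was not tested.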

How the data were processed

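Total RNA of HEC1B cells was measured in 3 libraries (siNC, siPRMT6-1, siPRMT6-2). Per the labels' protocols, the library kit was stranded and made for small amounts of total RNA. The authors deposited raw counts for each gene, unscaled. Per the submitters' processing notes, STAR 2.7.8a aligned the reads to hg38 and featureCounts 2.0.10 counted them. The file header instead names version 2.0.1, with strand setting 1, UCSC gene models grouped by gene name, and reads in overlapping genes added to each. Alignments were deduplicated by UMI, per the names in the file headers. Labels name the siRNAs si2 and si3 in the descriptions and siPRMT6-1 and siPRMT6-2 in the titles, and values per siRNA rest on both being right.

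The quasi-likelihood test of edgeR 4.0.16 (R 4.3.3) was fitted on the whole table with TMM scaling and filterByExpr (minimum count 10, minimum total 15), two-sided. It had 1 residual and 12.8 prior degrees of freedom. The fit takes the spread of the lone control to equal that of the knockdown libraries, and genes enough counted in only 1 library also passed. DESeq2 1.42.0 was an alternative, and the fit was tested on simulated data. For each siRNA, log2 CPM was compared with siNC after adding a prior count of 2, with no p-value. Deposited gene lengths gave CPM per kb.

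The members, lists and clusters were chosen with earlier results of these data known. Genes were named by rule: the 8 members with the most counts per kb, those with at least 20 counts in a library and the largest differences with both siRNAs or between them, the 5 lowest p, and the leading member of each cluster. Others are marked where named. Coding sequences came from GENCODE release 29. Alternatives changed the scaling, the filter, the fit, the cluster gap, the members with overlaps or special names, and left out each knockdown library.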

Additional observations from a re-analysis of the deposited data

How the results depend on the processing

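For the ratios, medians and number of members called, 132 alternative values stayed and 7 moved. A ratio or median stayed if it lay inside the interval of the main value, and a number of calls if it was unchanged. An alternative that stayed can still have an interval on another side of 1. The siPRMT6-1 ratio without specially named members, 1.14 (1.001 to 1.30), is such a case. For the log2 fold changes of named genes 118 alternatives stayed and 7 changed sign. Filtering at 20 counts left 7 members, whose siPRMT6-1 median was 0.49. Without antisense-named, readthrough and pseudogene-named members, the ratio of ZNF653 to ZNF791 with siPRMT6-1 was 3.12. Breaking clusters at 2 Mb gave 1.10 with siPRMT6-1 for ZNF473 and for ZNF175 to ZNF331, and 0.999 with siPRMT6-2 for the latter. Breaking them at 0.5 Mb gave 1.87 for ZNF557 to ZNF846 with siPRMT6-2, and leaving out members with opposite-strand overlaps gave 1.95 for ZNF565 to ZNF573. The cluster values changed because other genes were summed. The cause of the other changes was not tested.

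Genes called went from 0 to 25 with the 20-count filter and to 32 with the older fit of edgeR, with 0 members called in both. With no filter 3 members had an unadjusted p under 0.05 (lowest 0.032, ZNF83). The log2 fold change of ZNF446 was -0.0053 with no filter and -0.010 without opposite-strand genes. Leaving out a knockdown library moved it from -0.86 to 0.54, that of ZNF132 from -1.04 to 1.01, ZNF814 from -1.35 to 0.013, ZNF574 from -0.66 to 1.78 and ZNF787 from -0.18 to 0.11. No paired analysis was possible because the control group has a single library, so the groups share fewer than 2 replicate numbers. Depth limits all gene values, as 242 members never reached 10 counts.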

Other observations

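The other genes of chromosome 19 with zinc finger names (ZFP, ZSCAN, ZIM, ZIK1 and PEG3 names, 18 genes) had 16 counts in siNC, against 14 with siPRMT6-1 and 42 with siPRMT6-2, and 83.3% of them were at 0 in the 3 libraries. ZFP36, which encodes an RNA-binding protein with CCCH fingers and not a C2H2 protein, gave 6, 5 and 36 of these counts, a ratio of 7.01 with siPRMT6-2 (2.93 to 20.4). It was chosen after its values were seen.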
